A study of Homo sapiens with 12 samples.

Results

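The mRNAs described here are those whose level was over 2-fold lower after 10 µM girolline than in both DMSO libraries of a human cell line. They were chosen from RNA-seq rows with a coding length, after rows with identical counts had been merged. A row entered when its mean over the 4 RNA-seq libraries was at least 10 CPM (counts scaled to the library's total) and its log2(CPM + 0.1) in the 10 µM library lay more than 1 below each DMSO library. This left 32 of 59394 rows, or 0.163% of the 19587 rows that reached 10 CPM. The RNA-seq fall at 10 µM therefore chose the members and is given below as a description, with no test. The files name transcripts by UCSC ID and pair none of them with a gene, so members are identified by coding length and by position in the tables.

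The study treated wild type HEK293T Flp-In cells for 2 h. This established line derives from human embryonic kidney and carries a site for inserting transgenes. The groups used here were girolline at 10 µM (1 RNA-seq and 1 disome library), girolline at 1 µM (1 of each) and DMSO, the solvent (2 of each). RNA-seq after poly(A) selection measured mRNA level, and disome libraries counted the long fragments that 2 stacked ribosomes shield from nuclease. Whether the DMSO libraries stem from separate cultures is not stated, so a p-value reflects only their spread, which may be technical. Each dose rests on 1 library. In bulk samples, fewer cells of a type and less RNA per cell cannot be told apart. All levels here are relative to the other rows of a library, so a change in total RNA or total disomes is not seen.

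Girolline is a natural product from a marine sponge, and the series title ties it to eIF5A, a translation factor that helps ribosomes form peptide bonds at difficult sequences and release finished proteins at stop codons. When a leading ribosome pauses, the one behind can run into it, and the pair protects a disome fragment. The level of an mRNA reflects both its synthesis and its decay, and within a short treatment mRNAs with rapid turnover can change most. RNA-seq counts do not separate synthesis from decay, and disome counts per transcript do not separate pausing from the number of ribosomes on the mRNA.

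Total counts ran from 28424272 to 42194871 in RNA-seq and from 3091715 to 5769026 in disome libraries. Both DMSO pairs differed by more than sampling noise, with a chi-square per degree of freedom of 6.47 in RNA-seq and 2.11 in disome libraries, so neither looks like repeat deposits of the same library. This does not show that they came from separate cultures. Of the 19587 rows at 10 CPM or more, 2 differed over 2-fold between the DMSO libraries.

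The 32 members fell into 21 loci. A locus here is a run of members in which neighbours lay less than 10 coding rows apart in the deposited tables. Numbers 1 to 21 follow the order of the tables. Single members made up 14 loci, and 7 loci held the other 18 members. Members of a locus often had nearly equal counts: the 61-codon and 89-codon members of locus 4 had 1348 and 1349 counts in DMSO 1 and 580 each at 10 µM. Such rows appear to share reads and are not separate observations. In other loci 1 member stood apart. The 57-codon member of locus 12 had 1282 counts in DMSO 1 where the 2 others had 670 and 673. In locus 15 the 50-, 51- and 53-codon members had nearly equal values while the 59-codon member had other counts, so that run may hold more than one gene. Below, a locus is represented by its member with the highest mean CPM unless another is named.

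The members had short coding regions. Their coding length ran from 26 to 387 codons with a median of 62.5, against a median of 427 codons over all rows at 10 CPM or more. Under 100 codons lay 27 of the 32 members. The other 5 had 101, 102, 109, 131 and 387 codons, and the 387-codon region of locus 9 was the only one above 131. Coding length was not part of the rule, but it moved with the RNA-seq difference across all rows. The log2 difference of 10 µM from the mean of the DMSO libraries had a median of -0.15 in rows under 50 codons and -0.25 in those with 50 or more but under 100. It was -0.10 from there to under 200 codons, -0.04 to under 500, and 0.14 above.

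Counted by class, members were 3 of 32 rows under 50 codons (9.38%) and 24 of 616 rows with 50 or more but under 100 (3.90%). They were 4 of 3537 rows from 100 to under 200 codons (0.113%), 1 of 7010 rows from 200 to under 500, and 0 of 8392 longer rows. The class from 50 to under 100 codons ran from -1.04 at its 5th percentile to 0.41 at its 95th, and the longest class from -0.21 to 0.55. Every row's length value is smaller by 20 in the RNA-seq tables than in the disome tables, which points to RNA-seq counting over 20 fewer codons. On that reading the counted part of a member spanned 6 to 367 codons with a median of 42.5, and only 6 codons in both 26-codon members. The part of this short counted window in the members' fall was not tested.

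**Figure D1:**
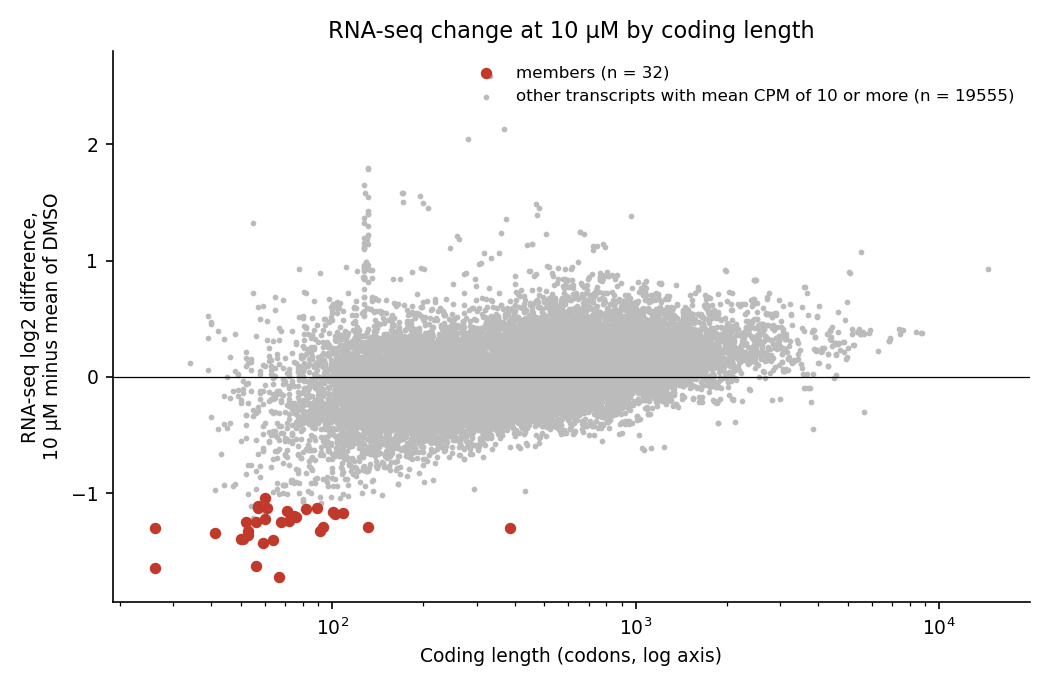
RNA-seq log2 difference (10 µM minus the mean of both DMSO libraries, on log2(CPM + 0.1)) against coding length in codons on a log axis, for the 32 members (red) and the other rows at 10 CPM or more (grey). The members, which were chosen for a low value, lie at 26 to 131 codons except for the 387-codon region of locus 9.

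At 10 µM the members kept between 29.5% and 48.4% of their mean DMSO level, with a median of 41.6%. Their log2 difference from the mean of the DMSO libraries ran from -1.72 to -1.05, with a median of -1.25. The lowest was locus 1, transcript uc057lfs.1 of 67 codons, which had 24.9 and 35.9 CPM in DMSO 1 and 2, 27.6 CPM at 1 µM and 8.99 CPM at 10 µM. Its DMSO libraries stood 0.53 apart on the log2 scale, the widest gap among the loci, and its 1 µM value lay between them. Locus 10, transcript uc065ahf.1 of 26 codons, followed with a difference of -1.64 and had 30.7 and 24.8 CPM with DMSO, 27.5 CPM at 1 µM and 8.78 CPM at 10 µM. Here DMSO 1 was the higher of the pair, and the 1 µM library again lay between the DMSO libraries.

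Locus 7, of 56 codons, had 33.3 and 38.9 CPM with DMSO, 31.9 CPM at 1 µM and 11.6 CPM at 10 µM, a difference of -1.62. Locus 14, of 64 codons, had 15 and 12.8 CPM with DMSO, 13.2 CPM at 1 µM and 5.19 CPM at 10 µM, a difference of -1.40. The 1 µM library was just under the DMSO pair in locus 7 and inside it in locus 14, and the 10 µM library stood far below the other 3 in both. Locus 15, of 53 codons, had 17.7 and 17.4 CPM with DMSO, 13.7 CPM at 1 µM and 6.79 CPM at 10 µM. Locus 11, the other 26-codon region, had 14.6 and 15.5 CPM with DMSO, 11.3 CPM at 1 µM and 6.05 CPM at 10 µM. In these loci the 1 µM library lay further under both DMSO libraries, between them and the 10 µM library. Locus 9, the 387-codon region, likewise had 15.1 and 14.7 CPM with DMSO, 13.0 CPM at 1 µM and 6.01 CPM at 10 µM.

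Loci 18 and 6 had the most reads. Locus 18 had 3 members of 72, 76 and 102 codons, and its 76-codon member had 251 and 297 CPM with DMSO, 255 CPM at 1 µM and 119 CPM at 10 µM. Locus 6, of 75 codons, had 151 and 179 CPM with DMSO, 165 CPM at 1 µM and 71.8 CPM at 10 µM. In both, the 1 µM library lay between the DMSO libraries. Locus 21, of 82 codons, had 83.4 and 77.0 CPM with DMSO, 73.1 CPM at 1 µM and 36.5 CPM at 10 µM. Locus 5, of 60 codons, had 69.4 and 72.2 CPM with DMSO, 62.8 CPM at 1 µM and 34.2 CPM at 10 µM, and at -1.05 was the smallest difference. Per counted codon, the mean level ran from 0.033 CPM in locus 9 to 4.11 CPM in locus 18, with locus 10 second among the loci at 3.83 CPM.

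**Figure D2:**
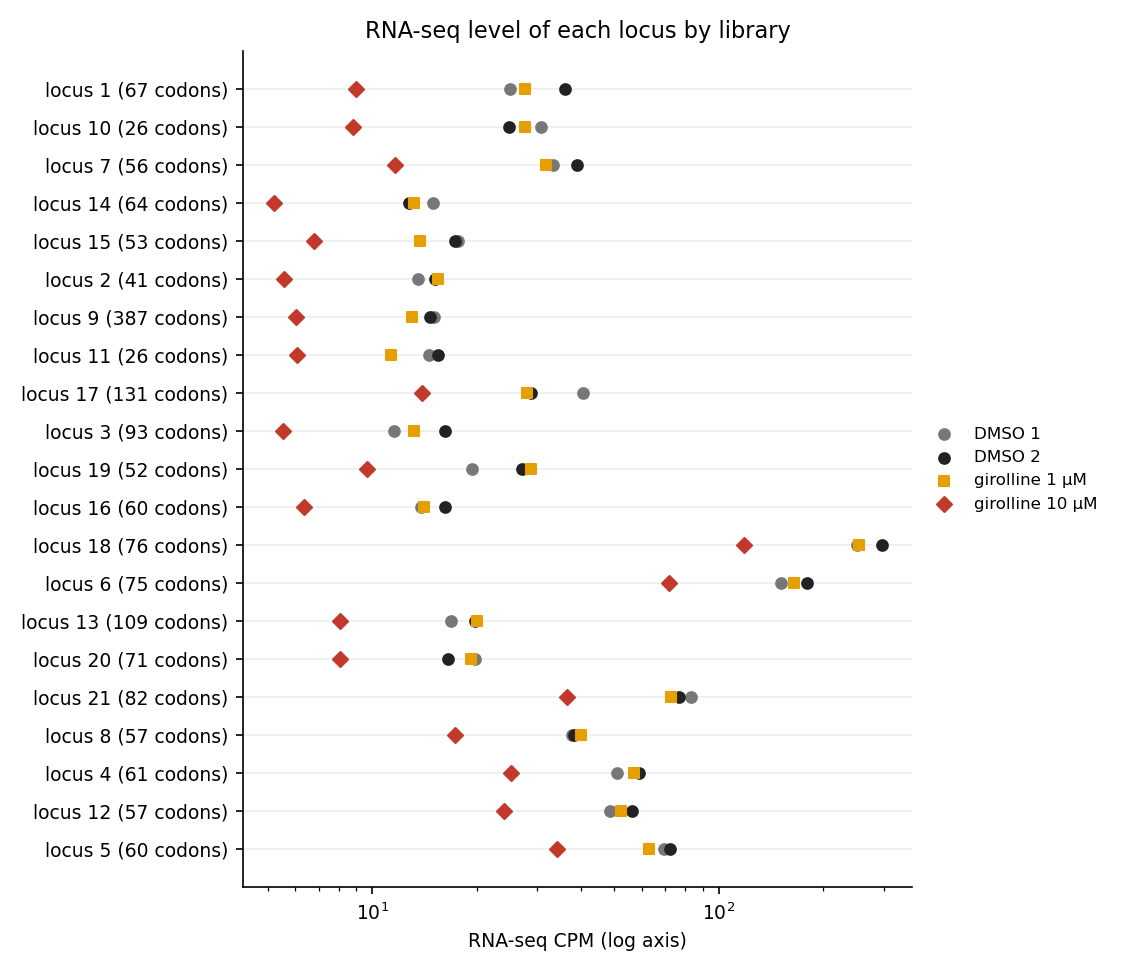
RNA-seq CPM on a log axis for the member with the highest mean CPM of each of the 21 loci, ordered by the 10 µM difference, with 1 point per library. The 10 µM point lies left of every other library in each row, which the selection fixed against DMSO, and the 1 µM point lies among or near the DMSO points.

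Locus 8, of 57 codons, had 37.8 and 38.3 CPM with DMSO, 40.2 CPM at 1 µM and 17.4 CPM at 10 µM. Several of the remaining loci were close to the threshold or low in counts. Locus 19, of 52 codons, had 19.5 and 27.1 CPM with DMSO, 28.8 CPM at 1 µM and 9.64 CPM at 10 µM, so the 1 µM library was the highest of the 4. Locus 17, whose members had 53 and 131 codons, had 40.5 and 28.8 CPM with DMSO, 28.0 CPM at 1 µM and 13.9 CPM at 10 µM in the 131-codon row. DMSO 1 stood above the rest there, and the 1 µM library lay just under DMSO 2. The members just inside the fold threshold had 57, 52 and 60 codons, and the smaller of their 2 differences from DMSO was -1.005, -1.005 and -1.016 on the log2 scale. The rows just outside had 54, 80 and 71 codons and -0.997, -0.992 and -0.984. Just inside the CPM minimum stood members of 91, 64 and 93 codons with means of 11.4, 11.5 and 11.6 CPM. The nearest rows under it that met the fold had 124, 92 and 67 codons with means of 9.76, 9.68 and 9.38 CPM.

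The counts behind the 10 µM values ran from 120 to 2744. A count of 120 has an exact 95% Poisson interval of 99.5 to 143, which covers counting error only. Placed at the upper end of that interval, 14 of the 32 members were still over 2-fold below both DMSO libraries and 18 were not. For this the DMSO values were taken as exact. In edgeR's quasi-likelihood fit of the 4 RNA-seq libraries, 32 of the 32 members were called lower at 10 µM, against 0.571% of all 56229 rows tested. The rule used that contrast, so nothing is read from this count or from the split at the upper end of the interval.

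The 1 µM library was not used for the fold threshold, although it shares the DMSO libraries and the CPM minimum with the rule. At this dose the members stood near their DMSO level. Their log2 difference from the mean of the DMSO libraries ran from -0.40 in locus 11 to 0.33 in locus 19, with a median of -0.09. The same median was -0.06 in the 621 other rows under 100 codons at 10 CPM or more, and 0.03 over all rows at 10 CPM or more. The gap between DMSO 2 and DMSO 1 had a median of 0.17 across the members and 0.04 over all rows at 10 CPM or more. Across the members it was larger in size than the median difference at 1 µM. The 2 are unlike measures, since the gap sets 1 library against 1 and not against a mean.

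Below both DMSO libraries at 1 µM lay 13 of the 32 members, where the background over all rows at 10 CPM or more was 18.4%. Among the other rows under 100 codons it was 271 of 621, or 43.6%, close to the members' 40.6%. Another 14 members lay between the DMSO libraries and 5 lay above both. Counted by locus, 7 lay below both, 10 between and 4 above both. edgeR's quasi-likelihood test called 0 of the 32 members at 1 µM, with a lowest adjusted p of 1.00 after Benjamini-Hochberg adjustment, and 0% of all 56229 rows in either direction. At an unadjusted p under 0.05 it found 1 member and 557 rows in all, and DESeq2 called 0 of the members too.

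**Figure D3:**
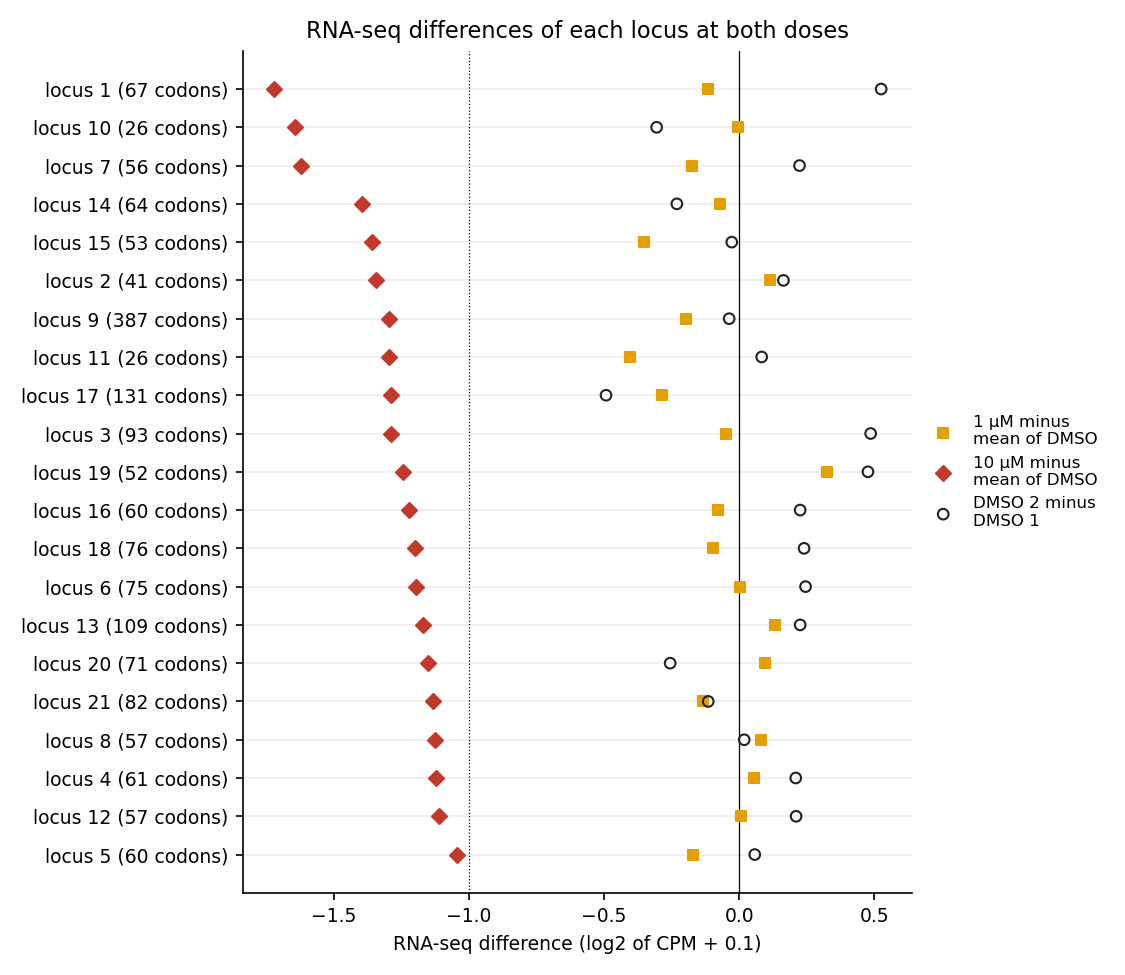
RNA-seq differences on log2(CPM + 0.1) for the 21 loci: 1 µM minus the mean of the DMSO libraries (orange), 10 µM minus that mean (red) and DMSO 2 minus DMSO 1 (open). The dotted line marks the threshold of -1. The 1 µM points run from -0.40 to 0.33 and overlap the range of the DMSO gaps, while the 10 µM points were selected below -1.

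Most loci had a denser row than their members close by. Within 9 coding rows of a locus lay 153 other rows at 10 CPM or more, with 1 to 13 per locus. In 19 of the 21 loci at least 1 of them had a higher mean CPM per counted codon than any member. Only locus 11, of 26 codons, and locus 19, of 52 codons, had none. How often rows that are not members have a denser row this near was not counted. The files do not say which neighbours belong to the same gene. At 10 µM, 101 of the 153 (66.0%) lay below both DMSO libraries by any amount, against 32.8% of all rows at 10 CPM or more. Rows that share reads with a member are drawn down in this contrast by the selection itself, so nothing is read from this share. Their median log2 difference was below 0 in 17 loci and above 0 in 4.

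Neighbouring rows fell almost as far as the member in some loci and not in others. Around locus 4 the 7 other rows ran from -0.93 to -0.53, with a median of -0.88. Around locus 13 the 5 other rows ran from -1.01 to 0.31, with a median of -0.93. By contrast, the 10 other rows around locus 1 ran from -0.37 to -0.20 where its member had -1.72, and the 4 around locus 7 ran from -0.45 to -0.22 where its member had -1.62. The 9 around locus 2, of 144 to 546 codons, ran from -0.31 to -0.13, while the 41-codon member had -1.34. The single neighbour of locus 19, of 971 codons, stood at 0.76. Some of these neighbours missed the rule narrowly, such as the 54-codon row beside locus 12 and the 71-codon row beside locus 10 that were given above as just outside the threshold.

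Disome footprints were measured in libraries that the rule did not use. Their counts were scaled within each library, so a rise or fall here is relative to other rows. On that scale disome footprints were mostly higher on the members after girolline, although the mRNAs were chosen for being lower. Of the 32 members, 31 passed the filter on low counts in the disome table. The 52-codon region of locus 19 did not pass, with 2 and 7 disome counts in DMSO 1 and 2, 8 at 1 µM and 7 at 10 µM. The 50- and 51-codon members of locus 15 had identical disome counts, so counts of tested members hold the same result for both. At 10 µM, 21 of the 31 tested members rose and 4 fell by edgeR's quasi-likelihood test at a Benjamini-Hochberg FDR of 0.05. The background over all 34606 rows tested was 20.8% higher and 14.9% lower. Taking 1 member per locus, 12 of 20 rose and 3 fell. The median disome log2 fold change of the tested members was 0.94, against -0.03 over rows at 10 CPM or more in RNA-seq. With 1 member per locus it was 0.82.

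Short coding regions as a class also gained disome footprints relative to other rows. Among the other rows under 100 codons with at least 10 CPM in RNA-seq, 303 of 598 tested rose (50.7%) and 78 fell (13.0%), with a median of 0.65. The members under 100 codons had 19 of 26 higher (73.1%) and 1 lower, with a median of 0.97. Several of these 26 rows share a locus and are not separate observations. These shares are descriptions, since members and other rows share reads between isoforms, and the difference between them was not tested. DESeq2 called fewer members, with 12 higher and 1 lower of 29 with an adjusted p. For DESeq2 and the fits that follow, the share over all rows is not given here. Their member counts are therefore not to be set against the edgeR background. In a fit of RNA-seq and disome libraries together, which allows a library to be left out, 21 members rose and 3 fell. That fit gave 19 rises and 1 fall without disome DMSO 1, and 16 and 4 without disome DMSO 2.

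At 1 µM, 15 of the 31 tested members rose in disome footprints and 0 fell by the same edgeR test. The background was 5.39% higher and 1.68% lower. The median log2 fold change of the members was 0.62, against 0.31 in the other rows under 100 codons, of which 24.9% were called higher and 2.84% lower. By locus 9 of 20 rose, with a median of 0.49. DESeq2 called 5 higher of 19 with an adjusted p, again without a share over all rows. In CPM, 26 of the 32 members lay above both DMSO libraries at 10 µM and 21 at 1 µM. The background over rows at 10 CPM or more in RNA-seq was 38.2% and 33.6%. Among the other rows under 100 codons, 363 of 621 lay above both at 10 µM and 338 at 1 µM. Stepwise, disome CPM rose from both DMSO libraries to 1 µM and again to 10 µM in 17 of the 32 members. By locus it was 11 of 21. The same held for 263 of 621 other rows under 100 codons and 4133 of all 19587 rows at 10 CPM or more. Both doses share the DMSO libraries.

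**Figure D4:**
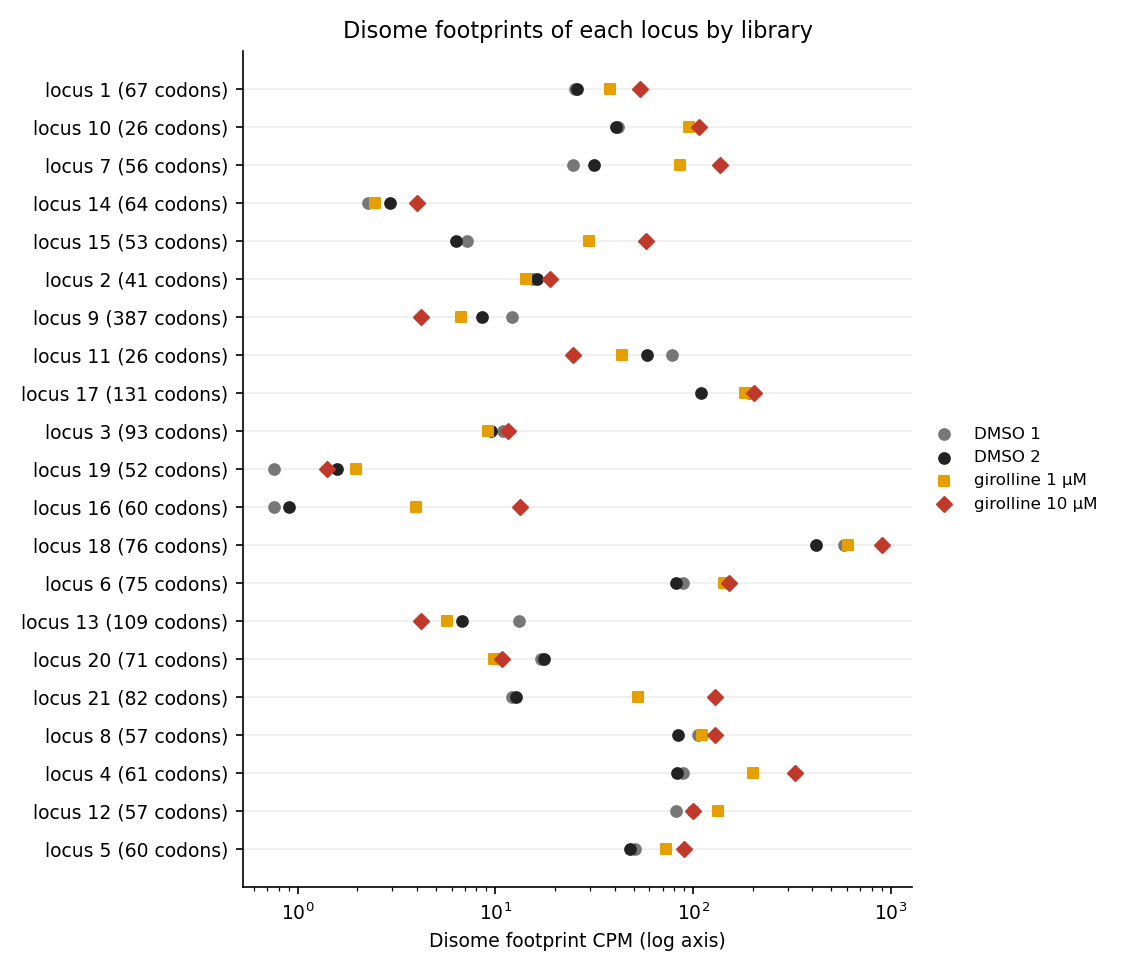
Disome footprint CPM on a log axis for the same 21 loci in the same order, with 1 point per library. In 11 loci the 10 µM point lies right of the 1 µM point, which lies right of both DMSO points, and loci 9, 11 and 13 show the opposite order.

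The largest disome gain was on locus 16, a 60-codon region, and it rests on few counts. It held 2 and 4 disome reads in the DMSO libraries, 16 in the 1 µM library and 66 in the 10 µM library, or 0.755 and 0.904 CPM with DMSO, 3.95 CPM at 1 µM and 13.2 CPM at 10 µM. On the log2 scale this was a 10 µM change of 4.03 (SE 0.49), and edgeR's Benjamini-Hochberg adjusted p = 5.44e-15. Its mRNA had 13.8 and 16.2 CPM with DMSO, 14.1 CPM at 1 µM and 6.36 CPM at 10 µM. Thus the 10 µM library was the highest of the 4 in disome footprints and the lowest in RNA-seq.

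Locus 21, of 82 codons, rested on more reads. It held 32 and 56 disome reads in the DMSO libraries, 213 in the 1 µM library and 645 in the 10 µM library. On the log2 scale it changed by 2.15 at 1 µM and 3.49 (SE 0.23) at 10 µM, and edgeR gave adjusted p = 3.07e-50 at 10 µM. Locus 15 held 19 and 28 disome reads in the DMSO libraries, 121 in the 1 µM library and 286 in the 10 µM library on its 53-codon member. For that member the 10 µM change was 3.21 (SE 0.27), and edgeR gave adjusted p = 2.37e-31. The 59-codon member of that run, with its own counts, held 255 and 596 disome reads in the DMSO libraries, 729 in the 1 µM library and 1318 in the 10 µM library and rose by 1.29 on the log2 scale at 10 µM. In CPM, both girolline libraries lay above both DMSO libraries on these members.

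Locus 7, of 56 codons, held 65 and 140 disome reads in the DMSO libraries, 349 in the 1 µM library and 679 in the 10 µM library. The change was 2.37 (SE 0.20) on the log2 scale at 10 µM, where edgeR gave adjusted p = 3.17e-29. Locus 4, of 61 codons, held 236 and 365 disome reads in the DMSO libraries, 808 in the 1 µM library and 1635 in the 10 µM library. The change was 2.05 (SE 0.17) on the log2 scale at 10 µM, where edgeR gave adjusted p = 2.17e-32. Locus 10, transcript uc065ahf.1, held 110 and 180 disome reads in the DMSO libraries, 384 in the 1 µM library and 532 in the 10 µM library. Its log2 fold change of 1.27 at 1 µM was close to the 1.49 at 10 µM. Locus 1, transcript uc057lfs.1, held 67 and 114 disome reads in the DMSO libraries, 153 in the 1 µM library and 269 in the 10 µM library. It rose by 1.19 on the log2 scale at 10 µM and was not called at 1 µM, where edgeR gave adjusted p = 0.0911.

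Other gains were smaller in fold. The 76-codon member of locus 18 held 1527 and 1839 disome reads in the DMSO libraries, 2444 in the 1 µM library and 4492 in the 10 µM library and rose by 0.97 (SE 0.13) on the log2 scale at the higher dose. In CPM its 1 µM value of 604 was just above DMSO 1 at 576, and DMSO 2 stood lower at 416. Locus 6, of 75 codons, held 235 and 361 disome reads in the DMSO libraries, 578 in the 1 µM library and 753 in the 10 µM library, with log2 fold changes of 0.82 at 1 µM and 0.94 at 10 µM. Locus 5 rose by 0.97 at 10 µM and locus 8 by 0.56. The 131-codon member of locus 17 rose by 0.55 in the test, but in CPM its 1 µM value of 183 lay under the 191 of DMSO 1 and its 10 µM value was 202. Locus 12 differed between its rows: the 68- and 56-codon members were called higher at 10 µM at 0.64 each, while its 57-codon member had 0.24 and adjusted p = 0.323 by edgeR.

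Disome footprints fell on 3 loci at 10 µM. Locus 11, of 26 codons, held 208 and 259 disome reads in the DMSO libraries, 177 in the 1 µM library and 123 in the 10 µM library. On the log2 scale this was a 10 µM change of -1.35 (SE 0.24), and edgeR gave adjusted p = 1.71e-07. Locus 9, the 387-codon region, held 32 and 38 disome reads in the DMSO libraries, 27 in the 1 µM library and 21 in the 10 µM library. The change was -1.13 (SE 0.38) on the log2 scale at 10 µM, where edgeR gave adjusted p = 0.0110. Locus 13, with members of 101 and 109 codons, held 35 and 30 disome reads in the DMSO libraries, 23 in the 1 µM library and 21 in the 10 µM library on the 109-codon row. The change was -1.04 (SE 0.39) on the log2 scale at 10 µM, where edgeR gave adjusted p = 0.0229. In these loci both disome footprints and mRNA were lower at 10 µM, and loci 9 and 13 rest on few disome counts.

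Loci 10 and 11, both of 26 codons, were chosen for lower mRNA but had disome log2 fold changes of 1.49 and -1.35 at 10 µM. At 1 µM their values were 1.27 and -0.57, of which edgeR called the first. The difference between these loci was not tested. Loci 2, 3, 14 and 20, of 41, 93, 64 and 71 codons, did not pass the edgeR test at either dose. Their disome log2 fold changes at 10 µM were 0.35, 0.32, 0.69 and -0.57. Locus 14 held only 6 and 13 disome reads in the DMSO libraries, 10 in the 1 µM library and 20 in the 10 µM library, a log2 fold change of 0.69 with an SE of 0.56, so at this depth a change of that size was not detectable.

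**Figure D5:**
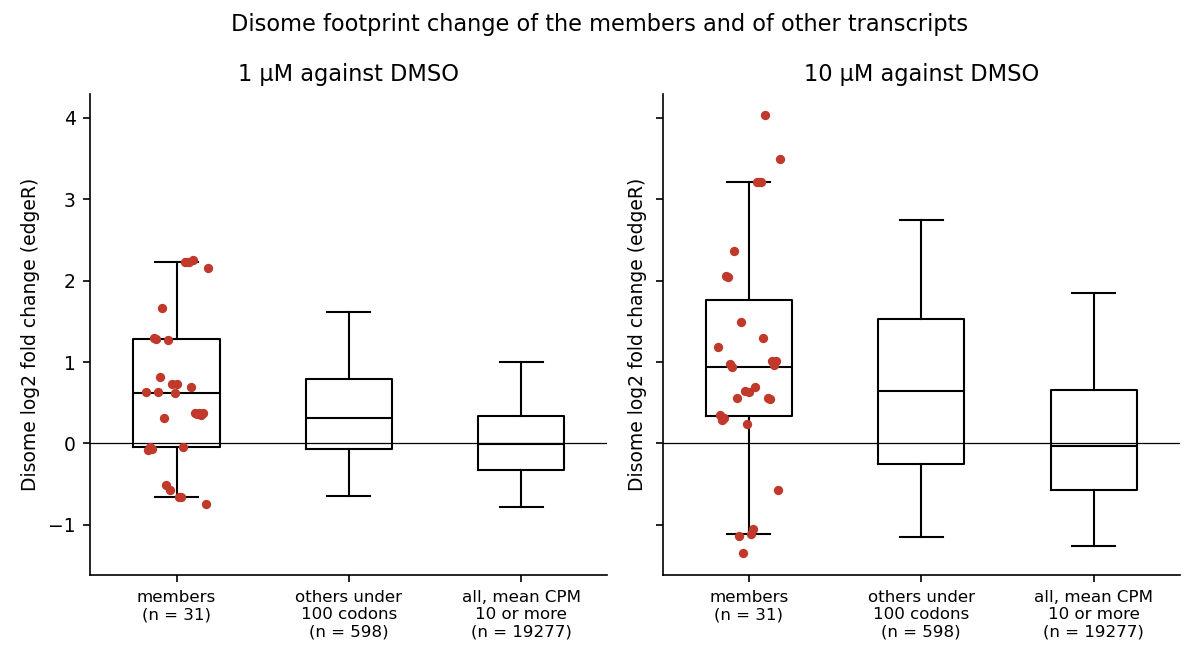
Disome log2 fold change (edgeR) at 1 µM and 10 µM against DMSO for the 31 tested members (points and box), the 598 other tested rows under 100 codons, and all 19277 tested rows at 10 CPM or more in RNA-seq, members included. Boxes span the quartiles with the median as a line, and whiskers the 5th to 95th percentiles. The medians at 10 µM are 0.94, 0.65 and -0.03.

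Rows beside the members showed disome gains as well. Among the tested disome rows within 9 coding rows of a locus that were not members, 69 of 151 rose at 10 µM (45.7%) and 18 fell. Over all tested rows at 10 CPM or more in RNA-seq 23.9% rose and 19.6% fell, and 50.7% of the other rows under 100 codons rose. Around locus 15, 10 of 13 rose, around locus 7, 4 of 4, and around locus 4, 5 of 7, with medians of 1.45, 1.69 and 1.53. Around locus 13, 5 of 5 fell with a median of -1.34, and around locus 11, 3 of 8 fell and 0 rose. Around locus 16, 7 of 10 rose with a median of 1.17, below the member's own 4.03. Neighbours may share reads with the member.

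The level of disome footprints per mRNA read with DMSO alone overlapped widely between the members and other rows. The ratio of disome CPM to RNA-seq CPM, averaged over the DMSO pair, had a median of 0.914 in the members, 0.658 in the other rows under 100 codons and 0.642 over all rows at 10 CPM or more. With 1 member per locus the median was 0.775. The quartiles were 0.551 and 1.74 in the members, and 0.345 and 1.34 in the other short rows. Within the members it ran from 0.0486 on locus 19 to 8.54 on the 59-codon member of locus 15. The ratio sets unlike counted regions side by side, since 20 more codons enter in disome tables, and it is given without a test.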

How the data were processed

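Per the labels, RNA-seq libraries were poly(A)-selected and stranded, and disome fragments were obtained by digesting lysates with RNase I, pelleting ribosomes and selecting by size. The authors deposited raw counts per transcript, 1 table per library. Per the submitters' processing notes, the build was hg38 and the tools were CASAVA 1.8 and STAR 2.7.0a, whose roles are not described. The counting tool, annotation release and handling of reads with several matches are not given in the sources used here. The deposited tables also hold a length, read as codons from its values. Reads appear to be counted in each isoform, so rows overlap.

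Of 182398 rows, 93916 have a coding length. CPM used the column total over merged rows. Counts of each kind were tested in edgeR 4.0.16 (R 4.3.3) with TMM scaling, filterByExpr, the quasi-likelihood test and Benjamini-Hochberg adjustment over all rows tested, fitting 4 libraries as 3 groups, which leaves 1 residual degree of freedom. The lone library of each dose was thus assumed to vary like the DMSO pair. SE is the absolute log2 fold change divided by the square root of its F statistic. The fits were checked on simulated counts. DESeq2 1.42.0 was an alternative.

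The members and the length classes were chosen with earlier results of these data known. Loci named are the 15 with the lowest RNA-seq difference, the 10 with the highest mean CPM and the 5 with the highest disome fold change, and others were added after their values were seen. Because IDs are not paired with gene names, at most 2 are printed, and planned gene lists and cell type markers were not analysed here. Monosome tables, which use other IDs, were not used here. No sequence is printed for the same reason.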

Additional observations from a re-analysis of the deposited data

How the results depend on the processing

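The number of members depends on the selection. It was 21 with a pseudocount of 1, 162 at a mean of at least 1 CPM, 18 at 20 CPM and 2 with 1 transcript per block of 10 coding rows, since members are rarely the highest row of a block. It was 48 to 68 when only 1 DMSO library was used, a looser rule by construction that kept the 32 members. TMM scaling gave 38, all 32 included, and unmerged rows 28, of which 26 were among the 32. Under these settings the median coding length was 59, 76, 64 and 70 codons in the same order, 70 to 77.5 with 1 DMSO library, 67.5 with TMM scaling and 61 without merging. The median difference at 1 µM kept its sign in each, and was -0.21 with 1 transcript per block and -0.19 to -0.13 with 1 DMSO library.

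In disome footprints at 10 µM, 25 members were called, 13 with DESeq2, 2 with 1 transcript per block (of 3 tested) and 15 counting 1 member per locus, an alternative chosen after seeing the data. At 1 µM 15 were called, and 5, 2 and 9 under the same settings. In a fit of the 8 RNA-seq and disome libraries, 24 and 15 were called, and with 1 DMSO library left out of it 20 at 10 µM in either case and 10 to 14 at 1 µM. DESeq2 size factors in edgeR and no filter gave 25 and 15. Shares over all rows are given here only for the main edgeR fit. At 1 µM in RNA-seq 0 members were called under each alternative. Low disome counts limit loci 14, 16 and 19. No paired analysis was possible because each dose has 1 library per kind, so the groups compared share fewer than 2 replicate numbers.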
